A study of Mus musculus with 2 samples.

Results

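The regions described here are the broad H3K9me3 peaks of intestinal stem cells, meaning listed peaks at least 3000 bp wide that held no more than 10 control tags, on chromosomes 1 to 19 or X. There were 331 of them among 40119 listed peaks, or 0.830% of the 39886 peaks on the same chromosomes. They covered 1.31 Mb, 3.58% of all base pairs in peaks there, and held 4.02% of the tags. The study profiled the mark by chromatin immunoprecipitation and sequencing (ChIP-seq) in GFP-high, CD24-low cells sorted from the intestine of 12 pooled C57BL/6 mice at 8 weeks of age, giving 1 ChIP library and 1 control library that the labels call input in one field and IgG in another. The mice carried Lgr5-EGFP-IRES-creERT2, in which the stem cell gene Lgr5 drives GFP and an inducible Cre, together with floxed Setdb1 alleles. No label says whether Cre had been induced. The knock-in is known to be expressed in a patchy way, so the sorted cells come from the crypts that express it. No RNA was measured, so markers could not check the cell type. With 1 library per group there was no replicate and no test between samples, and intervals below cover counting error alone.

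H3K9me3 is the trimethylated form of lysine 9 of histone H3, a mark of silenced chromatin that is read by HP1 proteins. SETDB1, the methyltransferase encoded by the floxed gene, is brought to DNA by TRIM28 (KAP1) and zinc finger proteins, and is known for silencing endogenous retroviruses. One of these zinc finger proteins, ZFP57, binds the methylated copy of imprinting control regions, where H3K9me3 marks the silent parental allele. Broad stretches of the mark are also known at pericentromeric repeats and at zinc finger gene clusters. The regions were chosen by their width and control tags, and tags, fold and density come from the same libraries, so all of these are given as descriptions.

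Among the genes whose start lay inside a broad peak were 3 imprinted genes that differ in role, and 1 stem cell gene. Their RefSeq promoter windows (GRCm38.p6, 250 bases before to 50 after the start, 5′ to 3′ on the gene's strand) are shown because each lay wholly inside its peak. Capitals mark every CG, the site of DNA methylation. Peg3 is a zinc finger gene expressed from the paternal copy, and its window is chr7:6730370-6730669 on the minus strand. Nnat encodes neuronatin, a small membrane protein, and its window is chr2:157559828-157560127 on the plus strand. Meg3 is a maternally expressed long non-coding RNA, with its window at chr12:109540746-109541045 on the plus strand. Sp5, a transcription factor gene activated by Wnt signals, has its window at chr2:70474673-70474972 on the plus strand.
Peg3: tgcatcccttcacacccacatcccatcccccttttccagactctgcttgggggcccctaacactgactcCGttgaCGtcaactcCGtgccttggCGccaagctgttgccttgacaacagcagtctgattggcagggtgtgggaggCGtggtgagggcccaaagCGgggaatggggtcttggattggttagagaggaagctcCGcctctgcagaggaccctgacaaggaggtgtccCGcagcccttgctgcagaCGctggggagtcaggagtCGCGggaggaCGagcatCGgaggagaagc
Nnat: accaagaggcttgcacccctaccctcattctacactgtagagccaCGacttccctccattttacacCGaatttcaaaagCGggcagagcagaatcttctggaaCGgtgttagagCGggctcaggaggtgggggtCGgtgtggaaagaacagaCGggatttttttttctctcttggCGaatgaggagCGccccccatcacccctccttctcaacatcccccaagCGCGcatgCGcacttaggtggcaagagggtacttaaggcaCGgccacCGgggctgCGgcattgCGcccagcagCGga
Meg3: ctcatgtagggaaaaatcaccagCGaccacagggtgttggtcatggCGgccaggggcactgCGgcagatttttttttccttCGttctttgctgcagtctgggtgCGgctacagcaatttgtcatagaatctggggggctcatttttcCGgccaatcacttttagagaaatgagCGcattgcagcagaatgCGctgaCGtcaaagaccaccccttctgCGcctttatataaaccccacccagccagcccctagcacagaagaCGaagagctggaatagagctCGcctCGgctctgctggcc
Sp5: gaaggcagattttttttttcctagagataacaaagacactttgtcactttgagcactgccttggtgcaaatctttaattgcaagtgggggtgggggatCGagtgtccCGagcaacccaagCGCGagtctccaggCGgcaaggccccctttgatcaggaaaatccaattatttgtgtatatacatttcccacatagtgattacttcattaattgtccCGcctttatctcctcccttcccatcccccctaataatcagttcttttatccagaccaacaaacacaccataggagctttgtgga

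The Nnat window held 17 CG, the Peg3 and Meg3 windows 13 each and the Sp5 window 6. The letters TGCCGC, the core bound by ZFP57, were searched on both strands. They occurred once in the Nnat window, starting at base 278, once in Meg3 at base 61 and once in Sp5 at base 134, counted from the 5′ end, and were not found in the Peg3 window. All 3 matches read GCGGCA as printed, the reverse complement, so TGCCGC stands on the other strand, and each contains 1 of the CG counted above. Usp29, a paternally expressed deubiquitinase gene that starts next to Peg3 and runs the other way, had its window inside the same peak, and the 2 windows shared 263 bases.

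Most broad peaks were only slightly wider than the limit. Their widths had a median of 3759 bp and quartiles of 3271 and 4263.5 bp. Of the 331, 211 peaks (63.7%) were under 4 kb and 31 were 5 kb or wider. The whole list had a median of 769 bp on these chromosomes. Per 100 bp of width, peaks with at most 10 control tags numbered 145 between 2600 and 2700 bp, 72 between 2900 and 3000 bp and 38 between 3000 and 3100 bp. From 3300 to 3700 bp the number stayed between 17 and 19 per 100 bp, and above 5000 bp no bin held more than 4. The limit of 3 kb thus lay on a falling slope. At 2999, 2997 and 2995 bp, the 3 peaks just outside held 82, 73.5 and 79 tags, and the 3 just inside, at 3003, 3003 and 3009 bp, held 91.5, 82.5 and 100 tags.

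**Figure D1:**
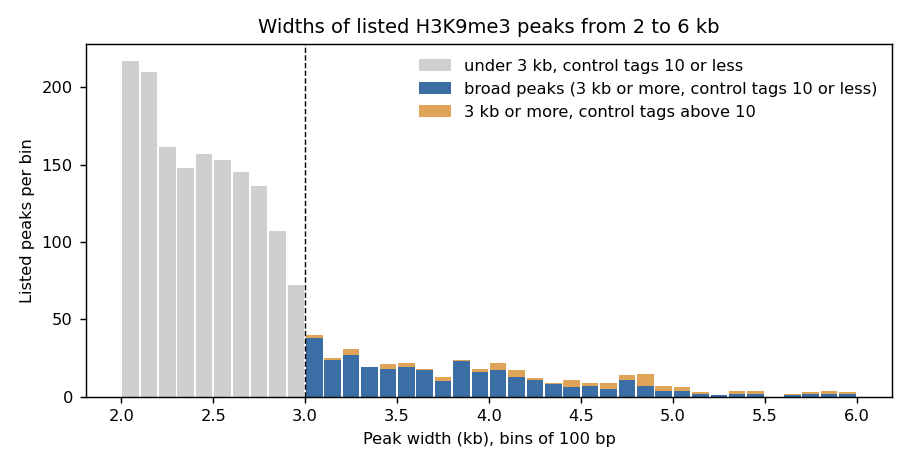
Number of listed peaks per 100 bp of width (y axis) against width in kb (x axis), on chromosomes 1 to 19 and X. Grey bars are narrower peaks with at most 10 control tags, blue bars the broad peaks and orange bars peaks of 3 kb or more with more than 10 control tags. The bars stand at 145 between 2600 and 2700 bp, at 72 just below the dashed line at 3 kb and at 38 just above it.

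Few exact widths recurred. The 331 peaks had 304 distinct widths. Of these, 23 occurred in 2 peaks and 2 occurred in 3. The width 3118 bp was shared by peaks on chromosomes 10, 12 and 18, and 3121 bp by peaks on chromosomes 2, 3 and 8. Whether peaks of equal width lie in copied sequence was not tested. Of all listed peaks on these chromosomes 32.0% were exactly 500 bp wide. That is the smallest width there, so this share is no yardstick for widths of 3 kb or more. A count of exact widths misses near matches. Peaks just past the ends of the predicted genes Gm2318, Gm2288 and Gm3657 on X, which are of like length, were 3678, 3693 and 3921 bp wide. In bins of 100 bp, the fullest was 3000 to 3100 bp. Local rises at 3800 to 3900 bp (23 peaks, exact Poisson 95% interval 14.6 to 34.5, beside 10 and 16 in the adjoining bins) and at 4700 to 4800 bp (11 peaks, 5.49 to 19.7, beside 5 and 7) had intervals that overlapped those of their neighbours. These rises were picked after the bins were seen.

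The 5 peaks with most tags in the fullest bin lay on 4 chromosomes and held between 111.5 and 154.5 tags. The first, on chromosome 10 (97326997 to 97330053), held 154.5 tags and lay 149447 bp before Dcn, which encodes the matrix protein decorin. The second, also on chromosome 10 (88650510 to 88653554, 151 tags), lay over the pseudogene Gm48106. The others, on chromosomes 7, 1 and 17, were between genes.

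Widths of 6 to 8 kb, the length of a full endogenous retrovirus or LINE element, were found in 12 of the 331 broad peaks (3.63%, exact Clopper-Pearson 95% interval 1.89 to 6.25%). The ceiling on control tags weighed on this share, because a wider peak collects more control tags. It removed 10 of 136 peaks (7.35%) between 3000 and 3500 bp, 41 of 53 (77.4%) between 6 and 8 kb, and 21 of 22 (95.5%) at 8 kb or more. The 130 peaks it removed had a median width of 5802 bp, a median of 41.1 ChIP tags per kb and 2.67 control tags per kb, against 31.1 and 1.51 for the broad peaks. With the ceiling lifted, 11.5% of peaks of 3 kb or more were 6 to 8 kb wide. At the ceiling itself, 13 peaks with 10 control tags had a median of 31.7 tags per kb, and 8 peaks with 10.5 control tags had 37.1.

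**Figure D2:**
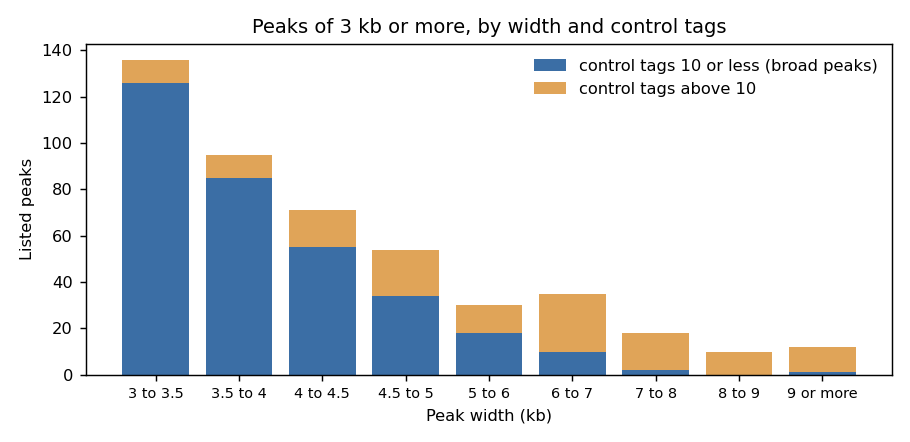
Number of listed peaks of 3 kb or more (y axis) by width in kb (x axis). Blue parts held at most 10 control tags and are the broad peaks, and orange parts held more. Orange makes up 10 of 136 peaks in the narrowest class and 25 of 35 at 6 to 7 kb.

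The widest broad peak lay over Flg2, which encodes filaggrin-2, a structural protein of the outer skin with long internal repeats. It spanned 13351 bp on chromosome 3 (93203683 to 93217034), 55.4% of the gene, and held 425.5 tags with 9 control tags. The next were far narrower. A peak of 7846 bp on chromosome 13 (67885803 to 67893649) lay 21880 bp from BC048507, and one of 7675 bp lay inside Abr on chromosome 11 (76549016 to 76556691, 319 tags, 9 control tags). Fyb, an adaptor gene of T cells, held one of 6753 bp on chromosome 15 with 266 tags, and Immp2l, a mitochondrial peptidase gene, one of 6701 bp on chromosome 12 with 195.5 tags. The Immp2l peak also covered 100% of the pseudogene Gm51974, which lies within the span of Immp2l. The remaining 5 of the 10 widest were 6435 to 6983 bp, and 3 of them lay over the pseudogenes Gm51636, Gm46187 and Gm47939, while 2 lay between genes on chromosomes 16 and 9. Per kb, these 10 peaks ranged from 24.9 to 41.6 tags, inside the range of the narrower ones.

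The broad peaks differed in density by more than counting error. Tags per kb ranged from 17.3 to 72.7 with a median of 31.1 (quartiles 26.4 and 36.7), against a median of 22.0 for all listed peaks. The SD over the 331 peaks was 9.60 tags per kb, and counting error alone would give 2.95. The exact Poisson 95% interval of 163 peaks held the pooled density of 32.9 tags per kb, that of 70 peaks lay above it and that of 98 peaks below. Width and density were weakly related across peaks (Spearman's rho 0.204, Pearson's r 0.125, n = 331, all from the same library and with width the divisor of density).

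The densest peak lay inside Arl15, a small GTPase gene, on chromosome 13 (113803042 to 113807513). It held 325 tags, or 72.7 per kb (65.0 to 81.0), beside 7 control tags. A peak on chromosome 6 (67006249 to 67009718) followed at 68.0 per kb (59.6 to 77.3), over Gng12, which encodes a G-protein gamma subunit, and the long non-coding RNA Gm36816. Mup-ps15, annotated as a long non-coding RNA among the major urinary protein genes on chromosome 4, held 65.7 per kb. The intervals of these 3 overlapped. S100a7l2 on chromosome 3, a relative of the S100 calcium-binding proteins, held a peak of 5678 bp with 336.5 tags, or 59.3 per kb. Of the 10 densest peaks 5 lay between genes, on chromosomes 2, 5 and 6.

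Of the 5 least dense peaks 3 lay in protein-coding genes. The lowest density, 17.3 tags per kb (13.8 to 21.4), was that of a peak of 4863 bp inside Prr12 on chromosome 7 (45045590 to 45050453, 84 tags, 4.5 control tags). Ccdc85c on chromosome 12 held one of 18.1 per kb, and Rin1, a Ras effector gene on chromosome 19, one of 18.5 per kb. The other 2 of the lowest 5 lay between genes on chromosomes 1 and 14, at 17.8 and 17.9 per kb. The intervals of all 5 overlapped one another, and none reached the interval of the Arl15 peak.

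**Figure D3:**
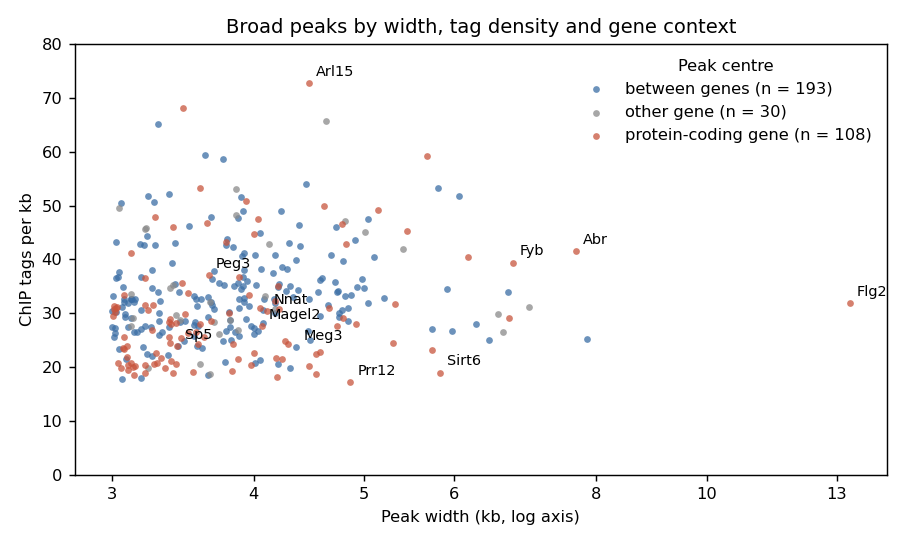
ChIP tags per kb (y axis) against peak width in kb on a log axis (x axis) for the 331 broad peaks, 1 point a peak, coloured by the annotation at its centre (protein-coding gene, another gene, or none). The lowest point is Prr12 (17.3 tags per kb at 4863 bp) and the highest Arl15 (72.7 at 4471 bp), while Flg2 stands alone at 13351 bp with 31.9 tags per kb.

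Against the control, the broad peaks held 43091 ChIP tags and 2015 control tags in all, a fold of 14.6 once the ChIP tags were scaled to the control library. The authors' fold per peak had a median of 14.6 (quartiles 11.2 and 18.3) and a lowest value of 5.09. A fold of at least 8 was met by 307 of the 331 (92.7%), beside 79.5% of all listed peaks on these chromosomes, a measure from the contrast that chose the regions. The highest folds, 240 on chromosome 4 (31775475 to 31779147, 175.5 tags) and 170 on chromosome 10 (23875799 to 23879056, 124 tags), were those of the 2 peaks at the lowest control value, 0.5 tag. Of all listed peaks 43.0% stood at that value. Control tags per kb, which the ceiling limits, had a median of 1.51 in broad peaks between genes and 1.52 in those in protein-coding genes.

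Broad peaks lay on all 20 chromosomes considered, at 0.126 per Mb. Chromosome 7 had most, 30 peaks or 0.206 per Mb (exact Poisson 95% interval 0.139 to 0.295), followed by chromosome 17 (17 peaks, 0.179), chromosome 10 (22, 0.168) and chromosome 11 (20, 0.164). The lowest densities were on chromosome 16 (6 peaks, 0.0612, interval 0.0224 to 0.133), chromosome 19 (4 peaks, 0.0652) and chromosome 14 (9 peaks, 0.0721). The interval of chromosome 7 lay above that of chromosome 16 and of chromosome 14 but overlapped those of the other chromosomes. Neighbours in this order did not differ beyond counting error. The order per Mb also reflects how many peaks of any width were listed. As a share of the listed peaks, broad peaks made up 0.830% over all 20 chromosomes. That share was 1.08% on chromosome 7, 0.871% on 17, 1.05% on 10 and 0.825% on 11, and highest on X at 1.26%. It was 0.472% on chromosome 16, 0.442% on 19 and 0.569% on 14.

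**Figure D4:**
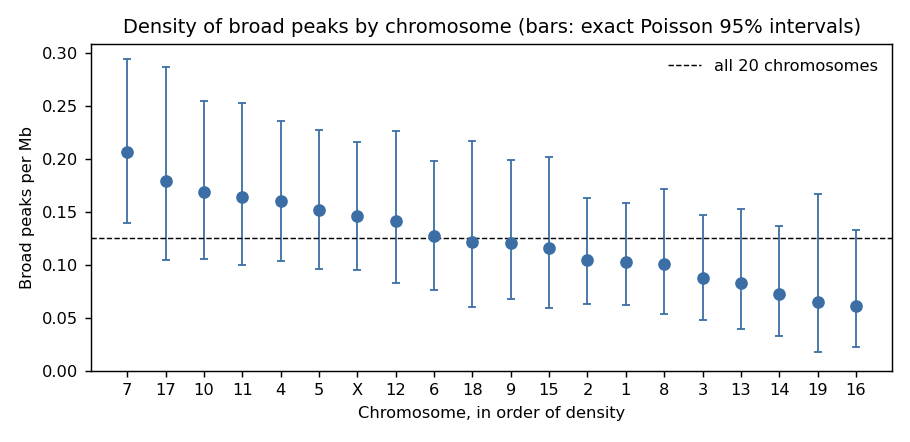
Broad peaks per Mb (y axis) for each chromosome, in order of density (x axis). Points are counts over chromosome length, bars are exact Poisson 95% intervals and the dashed line is the density over all 20 chromosomes, 0.126 per Mb. Every bar crosses the line except that of chromosome 7 (0.139 to 0.295), which lies above it.

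The X chromosome carried 25 broad peaks, 0.146 per Mb, which was 1.18 times the autosomal density (exact 95% interval 0.749 to 1.77). For all listed peaks the ratio was 0.753, just inside that interval. The direction was not stable, since the ratio was 0.805 with a width minimum of 2500 bp, 0.916 with a control ceiling in proportion to width and 1.70 with 5 control tags or fewer. On X, 23 of the 25 broad peaks lay between genes, beside 68.5% of all listed peaks on X. Their median density, 30.2 tags per kb, was close to that of the whole set. On X, 1 broad peak each lay within 5 kb of the predicted non-coding genes Gm7386, Gm7391, Gm7408, Gm7415, Gm3657, Gm3681, Gm2288 and Gm2318. These genes were of like length, 21.1 to 21.4 kb, and none had the peak on its span. The interval of the X ratio counts such peaks as independent, and whether they lie in copied sequence was not tested.

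Along the chromosomes, which in the mouse have the centromere at one end, broad peaks were most frequent near the ends. Each chromosome was cut into 5 stretches of equal length. The stretch nearest the centromere held 87 of 331 (26.3%, exact 95% interval 21.6 to 31.4%), and 18.9% of all listed peaks. The middle stretch held 48 (14.5%, 10.9 to 18.8%) against 18.1%, and the farthest 82 (24.8%, 20.2 to 29.8%) against 27.5%. Of these 3 stretches, the interval of the one nearest the centromere alone did not hold the share of all listed peaks. On chromosome 6 the first broad peaks stood side by side at 3131750 to 3135509 and 3137633 to 3142075, near the centromeric end, with 58.7 and 54.0 tags per kb, and both were among the 10 densest.

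Broad peaks seldom stood in groups with one another but often had another listed peak, of any width, near them. The nearest other broad peak was a median of 1604021 bp away, and only 7 groups, with 15 peaks, had gaps of 10 kb or less. The one group of 3, on chromosome 5 (94712947 to 94729863), lay between genes and was uneven. Its peaks held 59.4, 25.9 and 24.99 tags per kb, and the interval of the first (51.7 to 67.9) did not overlap the others. In contrast, any listed peak lay within 2 kb of 172 broad peaks (52.0%) and within 10 kb of 259 (78.2%), where the shares for all listed peaks were 16.2% and 45.5%. Distances were taken from edge to edge.

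By gene context, most broad peaks lay outside genes. The centre was between genes in 193 of 331 (58.3%, exact 95% interval 52.8 to 63.7%), in a protein-coding gene in 108 (32.6%, 27.6 to 38.0%) and in another gene in 30 (9.06%). For all listed peaks on these chromosomes the shares were 44.6%, 46.9% and 8.47%. The first 2 of these lay outside the intervals of the broad peaks, a counting statement that treats peaks as independent. Of the 30 in other genes, 17 lay in pseudogenes, 10 in long non-coding RNA genes and 2 in transcribed pseudogenes. No like split of all listed peaks is given here, so these counts stand without a background. Counting any overlap in place of the centre, 181 broad peaks (54.7%) touched no gene span at all.

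Distances to genes were wide-ranging. In all 125 broad peaks (37.8%) touched a protein-coding gene or lay within 5 kb of one, 95 (28.7%) were over 100 kb from one, and 7 were over 1 Mb away. The most remote, on chromosome 15 (15056139 to 15060035), lay 1668515 bp from Cdh9, a cadherin gene, and held 134.5 tags or 34.5 per kb. Grik2, a glutamate receptor gene on chromosome 10, was the nearest coding gene to 2 remote peaks, 1421139 and 1337709 bp away, with 22.0 and 30.8 tags per kb.

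Peaks in protein-coding genes had a lower median density than peaks between genes. The median was 27.9 tags per kb (quartiles 21.7 and 33.4) in protein-coding genes and 32.7 (27.6 and 37.5) between genes, and the quartile ranges overlapped. Broad peaks had a median of 9 coding genes in the 500 kb on either side. For the 80 peaks with 20 or more such genes the median was 27.9 tags per kb, and for the 106 with 4 or fewer it was 32.0. Control tags per kb had a median of 1.51 in both classes, a value limited by the ceiling on control tags that chose the peaks.

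The span of 149 protein-coding genes was touched by a broad peak, and 194 of 21631 (0.897%) had one on the span or within 5 kb. This share of 0.897% is the background for the gene lists below. The 194 include 26 clustered protocadherins with nested spans that came from 2 peaks, so the share counts some peaks many times. Only 5 of the 194 had more than 1. Nphp4, a gene of the ciliary transition zone on chromosome 4, had 4 broad peaks that covered 16327 bp, 18.9% of the gene. Their widths were 3577, 4736, 3075 and 5742 bp, their tags 87, 130.5, 72 and 133.5, and their densities 24.3, 27.6, 23.4 and 23.2 per kb, with overlapping intervals. All 4 lay below the median of the broad peaks. Bsn, which encodes the presynaptic scaffold protein bassoon on chromosome 9, had 2, with 26.2 and 28.3 tags per kb. The other 3 genes with 2 were the predicted genes Gm37013, Gm38666 and Gm38667, whose spans overlap on chromosome 18.

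By base pairs covered, Nphp4 and Flg2 were followed by Abr (7676 bp), Bsn (6922 bp), Fyb (6754 bp), Immp2l (6702 bp), Cnbd2 (6172 bp), Sirt6 (5827 bp), S100a7l2 (5679 bp) and Atp6v1h (5454 bp). The peak took 0.719% of Immp2l, the longest of them, 9.69% of Cnbd2 and 29.4% of S100a7l2. For Sirt6, a histone deacetylase of the sirtuin family, it covered 97.0% of a gene of 6.01 kb.

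Starts of 33 genes lay inside broad peaks, taking genes whose whole promoter window did so. That was 0.123% of the 26794 genes with a window on these chromosomes, and the 33 starts lay in 28 peaks (8.46% of broad peaks). Peg10 and Sgce had no window and so are not among the 33, although the Peg10 span begins 1210 bp into a broad peak. Of the 33 genes 23 were protein-coding, 7 of them predicted, and 10 were long non-coding RNAs. The 10 genes in the densest of these peaks were Gm36816, Gm52429, Gm41844, Catsperg1, Gm33250, Gm45988, Usp29, Peg3, 9130019O22Rik and Gm45978, at 68.0 to 35.1 tags per kb. Catsperg1, a subunit of the sperm calcium channel on chromosome 7, had a peak of 4002 bp with 179 tags. The peaks with a start inside had a median of 31.2 tags per kb and the others 31.1, so density did not separate them.

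The peak extended mainly downstream of the start in some genes and mainly upstream in others. Of the 23 protein-coding genes 14 had more of the peak downstream, and in 9 it reached at least 80% downstream. Sirt6 (93.3% downstream, 18.97 tags per kb), Plcxd1 (92.6%), Matk, a tyrosine kinase gene (92.3%), Nags, an enzyme gene of the urea cycle (89.6%), Peg3 (86.4%) and Sphk1, the sphingosine kinase 1 gene (82.1%), were of this kind. In these the peak began 254 to 619 bp upstream of the start and ran into the gene. At Fam174c (2.64% downstream), Usp29 (9.12%) and Tapbp, which encodes the peptide loading factor tapasin (22.3%), it lay upstream. Nnat (48.7%), Meg3 (48.7%) and Sp5 (43.4%) had their start near the middle. A start on 1 strand can lie beside another on the opposite strand, as at Peg3 and Usp29, Sox8 and Cerox1, Nags and Gm11586, Fgf11 and G630025P09Rik, and Meg3 and Gm34081, so the 33 starts are not independent.

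**Figure D5:**
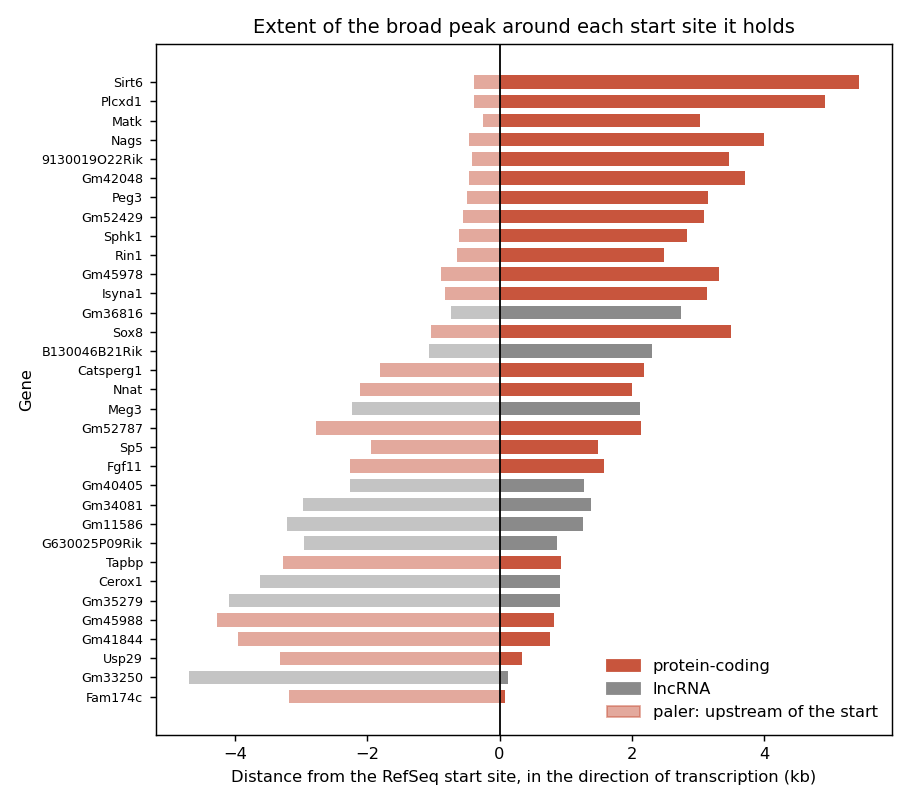
Extent of the broad peak upstream (negative, paler) and downstream (positive) of the RefSeq start site in kb (x axis) for the 33 genes whose promoter window lay inside a broad peak (y axis), ordered by the share downstream. Red bars are protein-coding genes and grey bars long non-coding RNAs. Sirt6 at the top has 5436 bp downstream and 390 bp upstream, and Fam174c at the bottom has 86 and 3177 bp.

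The promoter windows inside broad peaks all held a CG, as did 94.3% of the 26794 windows. Their median number was 13 (range 5 to 24), and that over all windows was 7. Isyna1, an enzyme gene of inositol synthesis, had most (24), followed by Cerox1 (22) and Sirt6, Sox8 and Sphk1 (21 each). The fewest were in Fgf11 and Gm42048, at 5. TGCCGC was found on either strand in 7 of the 33 (21.2%) and in 11.7% of all windows. These letters include a CG, and whether the shares differ beyond the higher CG number was not tested. GCCATNTT, a core of the motif of YY1, a zinc finger protein known to bind at Peg3, was found in 3 of 33 (9.09%) and in 6.26% of all. These are counts of letters in windows of 300 bases that partly overlap one another. No match was found for GCCATNTT in the Peg3, Nnat, Meg3 or Sp5 windows.

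Among the gene lists, imprinted genes had broad peaks most often in relation to the background, apart from clustered genes that share a peak. Of 70 imprinted genes 9 (12.9%, exact 95% interval 6.05 to 23.0%) had one on the span or within 5 kb, beside 0.897% of protein-coding genes. These 9 genes shared 6 peaks, while the interval takes genes as independent. The list also holds non-coding genes such as Meg3, and the background is of protein-coding genes alone. Of the 70 genes 63 (90.0%) had a listed peak of some width, beside 56.0% of protein-coding genes.

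At Peg3 and Usp29 the peak (6727265 to 6730916 on chromosome 7) held 135.5 tags (exact Poisson 95% interval 114 to 160) with 5.5 control tags. The peak at Nnat and its host gene Blcap (157557973 to 157562080 on chromosome 2) held 125 tags (104 to 149) with 8 control tags and covered 81.8% of Nnat. Peg10, a retrotransposon-derived gene, and Sgce, a sarcoglycan gene read in the opposite direction, shared a peak (4746096 to 4749599 on chromosome 6) of 118.5 tags (98.1 to 142) with 9 control tags. Magel2, in the Prader-Willi region of chromosome 7, had 112 tags (92.2 to 135) with 3.5 control tags over 87.2% of its span (62377308 to 62381372). These 4 peaks did not differ beyond their intervals.

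Gnas, which encodes a G-protein subunit, had its broad peak at the start of the annotated span on chromosome 2 (174284360 to 174288028, 104.5 tags, 85.4 to 127, 7 control tags). A wider one of 6256 bp in the same gene (174295044 to 174301300, 202.5 tags) had 13 control tags and so is not among the broad peaks. The peak at Meg3 (109538760 to 109543117 on chromosome 12) held 103.5 tags (84.5 to 125) with 3 control tags. Per kb the order was Peg3 (37.1), Peg10 (33.8), Nnat (30.4), Gnas (28.5), Magel2 (27.6) and Meg3 (23.8), and all but Peg3 and Peg10 were below the median of the broad peaks. Below the width limit were the widest peaks at Mest (2772 bp, 104 tags), Snhg14 (2910 bp, 83 tags) and Impact (2755 bp, 122 tags).

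Of 19 crypt stem cell genes 1 had a broad peak. It lay over the start of Sp5 (70472981 to 70476414 on chromosome 2) and held 82 tags (65.2 to 102) with 5 control tags, or 23.9 per kb. Lgr5 had 4 listed peaks, the widest of 947 bp, and Ascl2, a stem cell transcription factor, 1 of 2209 bp, so neither had a broad one. No peak of any width was listed at Olfm4, another stem cell marker, or at Setdb1. The lists of absorptive enterocyte (14 genes), secretory lineage (15), immune (12) and mesenchymal and endothelial genes (10) had no broad peak. At a background of 0.897% lists of this size would hold few or none.

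Of genes of H3K9 methylation and silencing, 1 of 28 had a broad peak nearby. It lay 616 bp beyond Daxx, a histone chaperone gene, on chromosome 17 (33916206 to 33920415, 129.5 tags), overlapped Zbtb22 and held the start of Tapbp. Of 18 necroptosis and cell death genes 1 did, Tradd, an adaptor of the TNF receptor, with a peak of 3011 bp and 89 tags that lay 1940 bp from the gene. That peak covered 59.7% of the gene Fbxl8 and reached into Hsf4. None of 21 genes of nucleic acid sensing and interferon, 45 germline and 2-cell-stage genes and 39 Hox genes had a broad peak. The exact 95% intervals of these lists, from 0 up to 16.1, 7.87 and 9.03%, held the background of 0.897%. A listed peak of any width was found at 37 of the Hox genes (94.9%) and 31 of the germline and 2-cell-stage genes (68.9%). That share was 56.0% for protein-coding genes.

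Zinc finger genes taken by symbol had broad peaks in 4 of 426 (0.939%, 0.256 to 2.39%), close to the background of 0.897%. The 4 were Zfp764 on chromosome 7 (142.5 tags, shared with 9130019O22Rik), Zfp605 on chromosome 5 (129.5 tags, 4554 bp from the gene, the peak over the start of Plcxd1), Zfp64 on chromosome 2 (114 tags) and Zfp469 on chromosome 8 (83.5 tags). The zinc finger list takes genes by name and includes members without a KRAB domain, the part that binds TRIM28. Olfactory receptors (1 of 1110, Olfr1008) stood at 0.0901% (0.00228 to 0.501%), an interval below the background. Vomeronasal receptors (2 of 353, Vmn1r45 and Vmn2r35) stood at 0.567% (0.0687 to 2.03%) and cytochrome P450 genes (1 of 99, Cyp2u1) at 1.01% (0.0256 to 5.4997%), and both intervals held it. A listed peak of any width was found at 7.84% of olfactory receptors, 16.7% of vomeronasal receptors and 42.4% of cytochrome P450 genes. That share was 60.6% for zinc finger genes and 56.0% for protein-coding genes. The low share of olfactory receptors was therefore not particular to broad peaks. Clustered protocadherins, adhesion proteins of neurons on chromosome 18, counted 26 of 55, but these came from 2 peaks. One (36986129 to 36989610, 104 tags, 29.9 per kb) lay in the overlapping spans of Pcdha1 to Pcdha7 and 2857 bp before Pcdha8. The other (37765732 to 37768850, 128.5 tags, 41.2 per kb) began just after the start of Pcdhga12 and lay in the spans of 18 gamma genes, Pcdhga1 among them.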

How the data were processed

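H3K9me3 ChIP-seq was measured in 1 ChIP library and 1 control library, and the deposited peak list compares them. Bowtie2 2.2.8, HOMER 4.10.1 and the builds GRCm38 and mm10 are named in the submitters' processing notes, while settings of the peak caller were not given in the sources used here. Per the file headers, the list gives for each peak a normalized tag signal, control tags as signal, a fold (ratio) over control, a caller's score and a p-value. The authors' score, p-value and clonal ratio were not used.

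ChIP tags were recovered from the authors' normalized tag signal, whose low values (30 or less) were whole multiples of 0.524 per 0.5 tag in 100% of 30961 peaks (within 0.1 of a step). The control value has a floor of 0.5. Tags per kb are tags over width. Intervals are 95%, exact Poisson for tags and exact Clopper-Pearson for shares, and treat tags as independent. They cover counting error only. The total depth of either library is not in the list, and the control library was 0.684 times the ChIP library. Code was tested on simulated data.

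Genes came from the RefSeq table of GRCm38.p6, which gives spans without exons, so exons, introns and UTRs were not told apart. A gene had a broad peak when its span plus 5 kb either side overlapped one. Promoter windows came from RefSeq on the same assembly (26794 genes). Repeat annotation was not used here. Python 3.11, pandas 2.3.3, numpy 2.4.6, scipy 1.17.1 and matplotlib 3.10.9 were used.

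Named by rule were the 10 widest, 10 densest and 5 least dense peaks, 3 on each side of the width limit, the 5 with most tags in the fullest width bin, 10 genes each by base pairs covered, by number of peaks (predicted genes left out of both) and by density at the start, up to 4 members per gene list, and Setdb1, Lgr5, Olfm4 and Ascl2. One of the peaks named by this rule is not reported here. The other genes and peaks, among them Gnas, Meg3, Mest, Snhg14, Impact, the examples by extent around the start and by CG, the highest folds, and the remote and grouped peaks, were chosen after their values were seen. The peaks and gene lists were chosen with earlier results of these data known. Alternatives were other limits on width and control tags, other gene windows, overlap in place of the centre and subtraction of scaled control tags.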

Additional observations from a re-analysis of the deposited data

Results flagged for a closer look

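Outside chromosomes 1 to 19 and X, 11 further peaks of 3 kb or more were listed, 4 on Y and 7 on unplaced scaffolds, and they enter no count above. They lie in data used in no comparison and, as called peaks do, stood above the control. Their median authors' fold of 9.29 (range 5.71 to 15.35) was below that of all listed peaks on chromosomes 1 to 19 and X (12.3) and of the broad peaks (14.6). Only 2, both on scaffolds, held 10 control tags or fewer, whereas all broad peaks did. Peaks of 3 kb or more on chromosomes 1 to 19 and X with control tags above 10 are a closer match. That set had a median authors' fold of 10.7 (quartiles 7.91 and 12.5), and these quartiles enclose 9.29. The 11 peaks had a median density of 70.7 ChIP tags per kb beside 3.70 control tags per kb.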

How the results depend on the processing

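No paired analysis was possible because each group had 1 library. Of 81 values of 9 results under 13 settings, 58 stayed close to the reported value and 23 moved. Shares, the X ratio and the median density counted as close inside the 95% interval of the reported value, and counts within 1.5 times of it. With a width minimum of 2500 bp there were 944 peaks with a median of 29.96 tags per kb, 1.27% of them 6 to 8 kb wide, at 448 protein-coding and 14 zinc finger genes. At 4000 bp there were 120 peaks with 32.9 tags per kb, 10.0% of 6 to 8 kb, at 63 protein-coding, 4 imprinted and 1 zinc finger gene. These counts change because the limit itself admits more or fewer peaks. With 5 control tags or fewer, 123 peaks had 28.2 tags per kb, 1.63% of 6 to 8 kb, at 84 protein-coding, 2 imprinted and 1 zinc finger gene. With no ceiling the median was 33.0 tags per kb and 11.5% were 6 to 8 kb wide. A ceiling in proportion to width, at most 3.33 control tags per kb and chosen after seeing the data, gave 32.3 and 11.7%. Subtracting scaled control tags gave 28.8 tags per kb, and widening the gene window to 10 kb gave 7 zinc finger genes. Few control tags per peak limit single folds.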
